A study of Arabidopsis thaliana with 10 samples.

Results

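The GASA genes of Arabidopsis thaliana encode small, secreted, cysteine-rich peptides of the snakin/GASA family. The 8 genes described here, GASA1, GASA4, GASA5, GASA6, GASA7, GASA9, GASA10 and GASA14, were taken by their gene IDs from the 34047 genes of the deposited tables. The rule lists IDs and no measured value, but the list was chosen with earlier results of these data known. Transcripts of entire 10-day-old seedlings of accession Col-0, untreated and grown at 22°C with 16 h of light, were sequenced as 2 libraries in each of 5 genotypes. The IBH1 overexpressor carried 35Spro:IBH1-GFP and the IBL1 overexpressor 35Spro:IBL1-GFP, both homozygous and driven by the viral 35S promoter, which is active in most tissues. The ibh1 mutant (SALK 049177) and the ibl1 mutant (SALK 119457) were homozygous lines, and Col was the wild type. How many independent transformants stood behind an overexpressor is not given in the sources used here.

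Gibberellin releases growth by triggering the breakdown of DELLA repressors, and transcripts of several GASA genes rise after it, which gave the family its name. GASA peptides act in cell elongation, flowering and redox balance. IBH1 and its homologue IBL1 are helix-loop-helix proteins without a DNA-binding basic region that restrain cell elongation by pairing with growth-promoting bHLH factors, on which brassinosteroid, gibberellin and light signals meet. The comparisons ask how excess or reduced IBH1 or IBL1 transcript bears on the transcripts of these gibberellin-regulated peptides.

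All values are the authors' deposited values, 1 FPKM value per genotype (fragments scaled to transcript length and sequencing depth, so levels can be compared between genes), with no value per library. Fold changes are line over Col on the log2 scale, each followed by ± its standard error as recovered from the Cuffdiff statistic of the authors (n = 2 libraries per genotype). Calls, written as rose or fell, are q-values of the authors below 0.05, adjusted over every gene tested in a table. The 4 comparisons share the same 2 Col libraries. The submitters call the 2 libraries biological duplicates without saying what was grown or harvested apart. With no value per library, how far the Cuffdiff p-values and standard errors reflect the spread between the 2 libraries could not be checked. IBH1 was at 5148 FPKM in its overexpressor and 6.91 in the ibh1 mutant against 22.2 in Col, and IBL1 at 201 FPKM in its overexpressor and 1.87 in the ibl1 mutant against 7.70 in Col. The mutants thus kept 31.2% (IBH1 in ibh1) and 24.3% (IBL1 in ibl1) of the Col transcript, and protein was not measured. IBL1 was also called lower in the IBH1 overexpressor, at 1.84 FPKM (log2 -2.07 ± 0.69, authors' q 0.0363), close to its level in the ibl1 mutant. GASA6, GASA4 and GASA1 were lower in that overexpressor than in the ibl1 mutant, and GASA14 was not told apart between them (log2 -0.09 ± 0.12, adjusted p 0.922). These 2 lines also differ in IBH1, and the part of the lower IBL1 transcript in the GASA results was not tested. The transgene transcripts stood 232-fold (IBH1) and 26.1-fold (IBL1) over Col, so the protein and its dose cannot be told apart between the overexpressors. The median gene moved by 0.12 (log2) in the IBL1 overexpressor and by -0.07 in the ibl1 mutant. Of the markers set against the seedling label, the 3 of leaf (RBCS1A, LHCB1.3, CAB3) were at 2529 FPKM or more in every genotype, the 4 of root (CASP1, COBL9, WER, PYK10) were detected in every genotype, and the 3 of seed (CRC, CRA1, OLEO1) were at 0.0890 FPKM or less, with CRC and OLEO1 at 0 throughout. The flower markers AP3 and AG summed to 0.383 FPKM in Col and 3.08 in the IBH1 overexpressor, where AP3 was at 2.53 and was called higher; its part in the results was not tested.

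The regions upstream of the 4 genes that were called in at least 1 line are shown because it is their transcripts that the results turn on. Each is the 250 bases before the RefSeq gene start (RefSeq, TAIR10.1), 5′ to 3′ on the gene's strand, and capitals mark each match to the E-box CANNTG, the core that bHLH factors recognise.
GASA6 upstream region, chr1:28052780-28053029, plus strand: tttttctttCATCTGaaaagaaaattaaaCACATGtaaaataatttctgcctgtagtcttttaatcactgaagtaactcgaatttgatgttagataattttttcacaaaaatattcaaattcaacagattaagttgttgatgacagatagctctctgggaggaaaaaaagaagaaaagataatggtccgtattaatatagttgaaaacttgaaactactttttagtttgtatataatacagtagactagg
GASA14 upstream region, chr5:4825891-4826140, plus strand: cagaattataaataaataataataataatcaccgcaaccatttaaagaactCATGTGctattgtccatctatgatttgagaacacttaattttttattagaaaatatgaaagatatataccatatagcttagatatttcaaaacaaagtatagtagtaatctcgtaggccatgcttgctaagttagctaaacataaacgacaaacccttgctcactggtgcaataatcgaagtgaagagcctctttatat
GASA4 upstream region, chr5:4944566-4944815, plus strand: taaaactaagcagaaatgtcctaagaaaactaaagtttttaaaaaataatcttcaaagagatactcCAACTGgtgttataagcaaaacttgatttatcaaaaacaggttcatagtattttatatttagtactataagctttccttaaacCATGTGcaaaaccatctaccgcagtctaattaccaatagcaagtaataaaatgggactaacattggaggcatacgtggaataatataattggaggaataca
GASA1 upstream region, chr1:28442436-28442685, minus strand: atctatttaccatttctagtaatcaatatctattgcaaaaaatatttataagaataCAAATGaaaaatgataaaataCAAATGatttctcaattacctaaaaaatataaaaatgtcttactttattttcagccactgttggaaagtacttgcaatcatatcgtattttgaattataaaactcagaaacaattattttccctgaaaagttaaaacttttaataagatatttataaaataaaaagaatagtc
GASA6, GASA4 and GASA1 held 2 E-box matches each and GASA14 held 1. Of all 8 genes 6 held a match, against 55.3% of 27443 protein-coding genes. No match to the G-box CACGTG (an E-box of one exact sequence, in 6.49% of all genes), or to the brassinosteroid response elements CGTGTG (5.37%) and CGTGCG (1.57%), searched on both strands, lay in any of the 8 windows. The gibberellin response element TAACAAA lay in the window of GASA9 alone, against 16.2% of all genes. A match is a stretch of letters and does not show binding, and windows without one say nothing of sequence further away. The locus used for the FPKM values starts later than the RefSeq gene, at 28053286 against 28053030 in GASA6 and at 4826479 against 4826141 in GASA14. The stretch between these starts was not searched.

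The family mark lies in the coding sequence. In all 8 genes the last 60 codons before the stop held 12 cysteine codons (TGT or TGC). The reading frames ran from 89 codons in GASA10 to 119 in GASA9, except in GASA14, which has 275 codons and so a long stretch ahead of the cysteine-rich end. Among the 8 genes the last 60 codons were most alike in GASA5 and GASA6, at 73.1% nucleotide identity, and least alike in GASA1 and GASA6, at 48.9%. No locus of the 8 overlapped another gene of the tables.

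In Col the family was led by GASA4 at 412 FPKM, followed by GASA6 at 305, GASA14 at 263 and GASA1 at 215 FPKM. These 4 stood among the upper 3.79% of the 20071 genes at 1 FPKM or more. GASA9 was at 78.7, GASA7 at 34.5, GASA5 at 32.8 and GASA10 at 2.34 FPKM. The 4 abundant genes are also the 4 that were called in any line, with 10 calls in all, while the 4 scarcer ones gave 0 calls in 16 tests of the authors' Cuffdiff and 2 at an unadjusted p below 0.05. Precision differed too. The log2 standard errors were 0.07 to 0.12 for GASA1, GASA4 and GASA14 and 0.09 to 0.25 for GASA6. They were 0.18 to 0.27 for GASA5, GASA7 and GASA9 and 0.84 to 0.99 for GASA10. The lack of a call in the scarcer genes therefore does not show that they were unchanged.

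**Figure D1:**
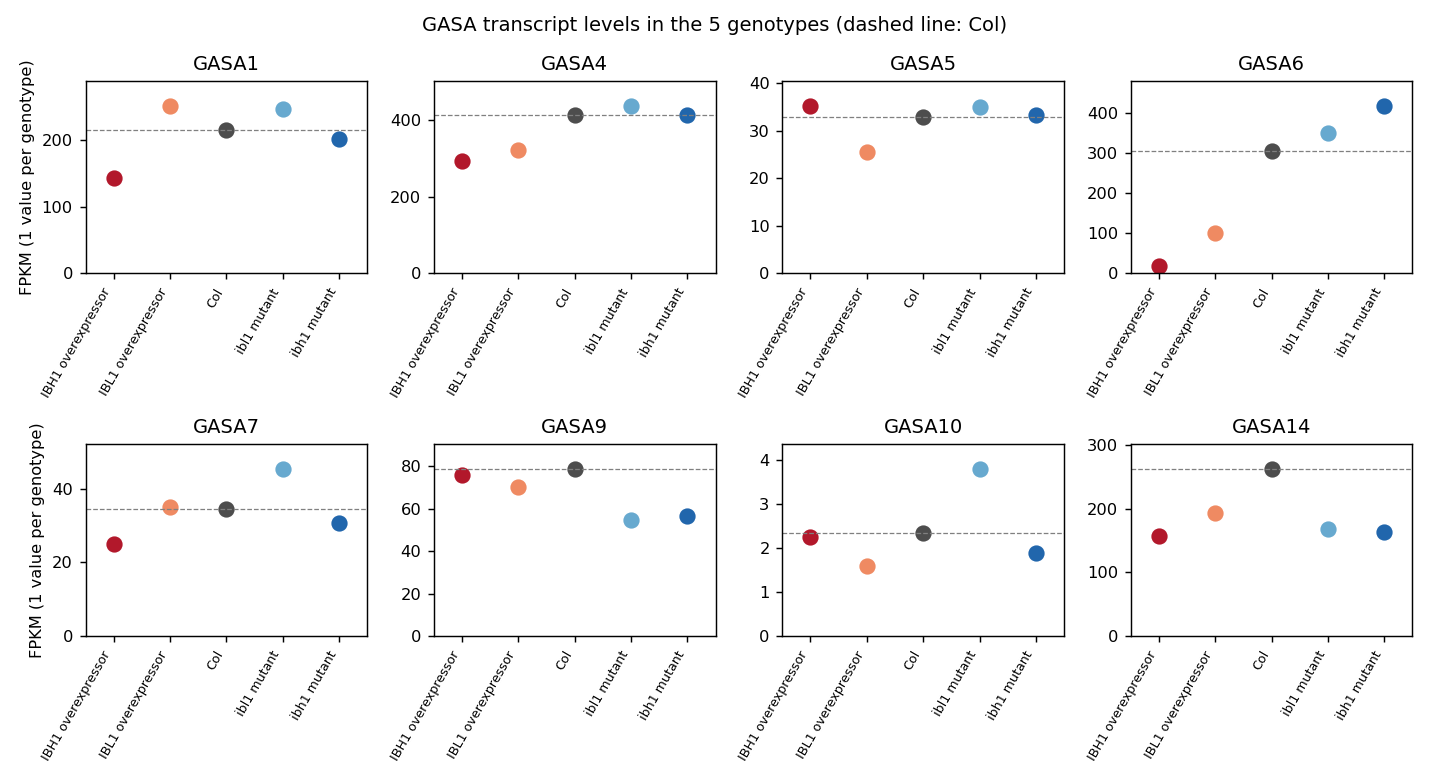
FPKM of each GASA gene (vertical axes, linear from 0, 1 scale per panel) in the 5 genotypes (horizontal axes), 1 point per genotype and no error bar because the files give 1 value per genotype; the dashed line is Col. GASA6 runs from 18.4 FPKM in the IBH1 overexpressor to 418 in the ibh1 mutant, and GASA14 is below Col in all 4 lines.

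GASA6 (AT1G74670, chromosome 1, 28053286 to 28054149, plus strand, TAIR10), a gibberellin-induced gene that promotes cell elongation in the germinating embryo, was the member that changed most. It was at 18.4 FPKM in the IBH1 overexpressor, 101 in the IBL1 overexpressor, 305 in Col, 351 in the ibl1 mutant and 418 in the ibh1 mutant. Both overexpressors thus lay below Col and both mutants above it, over a 22.7-fold range.

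Against Col, GASA6 fell 16.6-fold in the IBH1 overexpressor (log2 -4.05 ± 0.25, authors' q listed as 0), to 6.04% of Col. Only 1 gene fell more among the 839 called lower at 1 FPKM or more in both genotypes. In the IBL1 overexpressor it fell 3.03-fold (log2 -1.60 ± 0.12, authors' q listed as 0) and ranked 26 of 752 such genes. Both rankings leave out genes that fell below 1 FPKM. In all, 868 genes were called lower in the IBH1 overexpressor and 769 in the IBL1 overexpressor. GASA6 rose 1.37-fold in the ibh1 mutant (log2 0.45 ± 0.10, authors' q 0.00096). The ibl1 mutant had log2 0.20 ± 0.09 (authors' q 0.221, 95% interval of 0.02 to 0.38), which was not called.

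Lines were also compared directly, as the difference of their fold changes, in which Col cancels (6 pairs, two-sided normal test with Benjamini-Hochberg adjustment over all genes of a pair). The error used counts that of Col in each fold change and so is at least as large as the true one. GASA6 was 5.46-fold lower in the IBH1 than in the IBL1 overexpressor (log2 -2.45 ± 0.28, adjusted p 7.91e-16). It was 22.7-fold lower in the IBH1 overexpressor than in the ibh1 mutant (log2 -4.50 ± 0.27, adjusted p 1.14e-57), 19.0-fold lower there than in the ibl1 mutant (log2 -4.25 ± 0.27, adjusted p 1.28e-52) and 3.49-fold lower in the IBL1 overexpressor than in the ibl1 mutant (log2 -1.80 ± 0.15, adjusted p 1.95e-30). The mutants were not told apart, at log2 0.25 ± 0.14 for ibh1 over ibl1 (95% interval of -0.02 to 0.52, adjusted p 1.0). In the order of levels, the steps from the IBH1 to the IBL1 overexpressor and from there to Col passed the tests, and the steps from Col to the ibl1 mutant and from there to the ibh1 mutant did not.

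**Figure D2:**
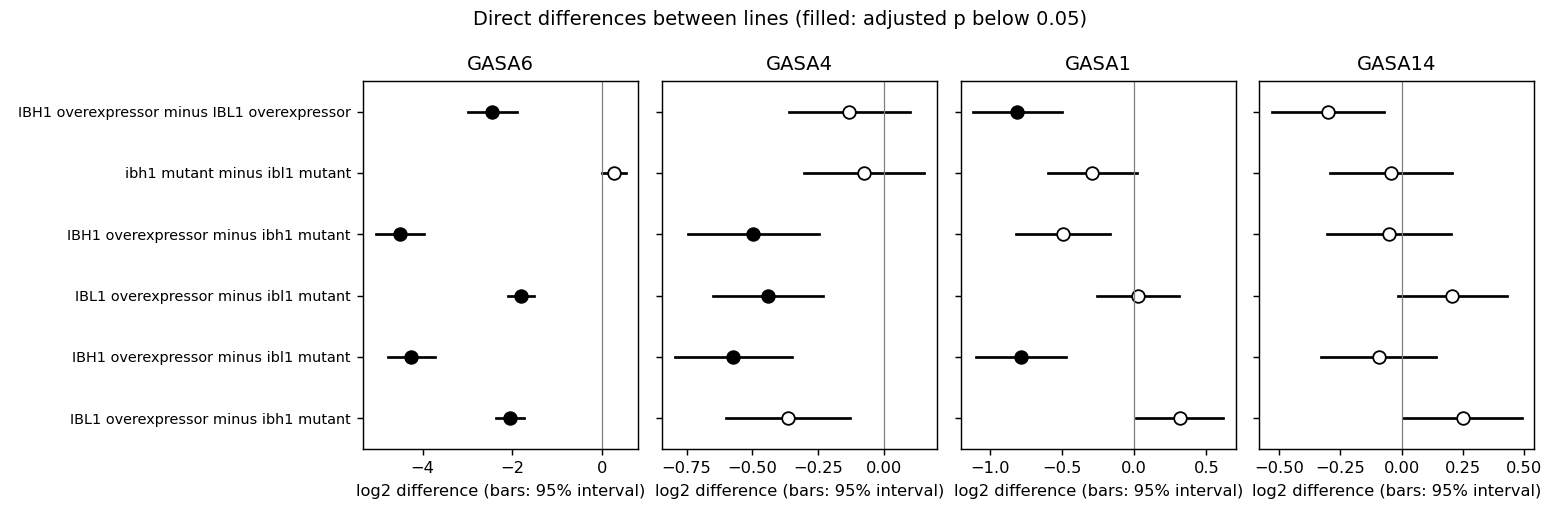
Direct log2 differences between lines (horizontal axes, 1 scale per panel) for the 4 called GASA genes over the 6 pairs of lines (rows); points are differences, bars 95% intervals, and filled points have an adjusted p below 0.05. GASA6 is filled in 5 of the 6 pairs and GASA14 in 0.

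GASA14 (AT5G14920, chromosome 5, 4826479 to 4827980, plus strand), which acts in leaf expansion and stress resistance through reactive oxygen, was lower than Col in each of the 4 lines. Its level was 263 FPKM in Col, 157 and 194 in the IBH1 and IBL1 overexpressors, and 163 and 168 in the ibh1 and ibl1 mutants. The overexpressors and the mutants did not separate here, and Col stood alone at the top.

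It fell by 0.74 ± 0.09 on the log2 scale in the IBH1 overexpressor (authors' q listed as 0), by 0.69 ± 0.10 in the ibh1 mutant (authors' q 5.41e-10) and by 0.65 ± 0.08 in the ibl1 mutant (authors' q 2.97e-12). In the IBL1 overexpressor it fell by 0.44 ± 0.08 (authors' q 5.64e-07). All 4 calls rest on the same Col value, so they are not 4 independent observations. Directly compared, none of the 6 pairs of lines was called for GASA14. The widest difference, IBH1 against IBL1 overexpressor, was log2 -0.30 ± 0.12 (95% interval of -0.53 to -0.07, adjusted p 0.123), and it was called, with adjusted p 0.0032, only when the error was reduced by taking all genotypes to vary alike.

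GASA4 (AT5G15230, chromosome 5, 4944900 to 4946216, plus strand), a gibberellin-promoted gene with a role in redox regulation and in flower and seed development, was lower in both overexpressors. It was at 294 FPKM with excess IBH1 and 322 with excess IBL1, against 412 in Col, 414 in the ibh1 mutant and 437 in the ibl1 mutant. Both overexpressors lay below the other 3 genotypes, which lay close together.

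GASA4 fell by 0.49 ± 0.09 in the IBH1 overexpressor (log2, authors' q 1.74e-06) and by 0.36 ± 0.08 in the IBL1 overexpressor (authors' q 0.000116). The mutants had log2 0.01 ± 0.09 (ibh1, authors' q 0.982) and 0.08 ± 0.07 (ibl1, authors' q 0.608). The direct test put it lower in the IBH1 overexpressor than in the ibh1 mutant (log2 -0.50 ± 0.13, adjusted p 0.00565) and than in the ibl1 mutant (-0.57 ± 0.11, adjusted p 6.35e-05). It was lower in the IBL1 overexpressor than in the ibl1 mutant (-0.44 ± 0.11, adjusted p 0.00184). Between the IBL1 overexpressor and the ibh1 mutant the difference was -0.36 ± 0.12 (adjusted p 0.0836), and after subtracting each line's median gene it was -0.47 and called (adjusted p 0.00817). The overexpressors differed from each other by -0.13 ± 0.12 (95% interval of -0.36 to 0.10, adjusted p 0.727).

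GASA1 (AT1G75750, chromosome 1, 28441526 to 28442367, minus strand), a gene raised by gibberellin and lowered by brassinosteroid, was called in the IBH1 overexpressor alone. It was at 143 FPKM there, at 201 in the ibh1 mutant, 215 in Col, 246 in the ibl1 mutant and 250 in the IBL1 overexpressor. The IBH1 overexpressor was the low genotype, and the IBL1 overexpressor the high one.

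The fall in the IBH1 overexpressor was 0.59 ± 0.12 (log2, authors' q 4.3e-05). The IBL1 overexpressor had log2 0.22 ± 0.10 (authors' q 0.133), of which 0.12 is the shift of the median gene. The ibl1 mutant had 0.19 ± 0.10 (authors' q 0.334) and the ibh1 mutant -0.10 ± 0.12 (authors' q 0.759). The overexpressors differed in the direct test, with GASA1 1.75-fold lower in the IBH1 overexpressor (log2 -0.81 ± 0.16, adjusted p 1.85e-05). It was also lower there than in the ibl1 mutant (log2 -0.78 ± 0.16, adjusted p 9.64e-05), and against the ibh1 mutant it had -0.49 ± 0.17 (95% interval of -0.82 to -0.16, adjusted p 0.0913).

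**Figure D3:**
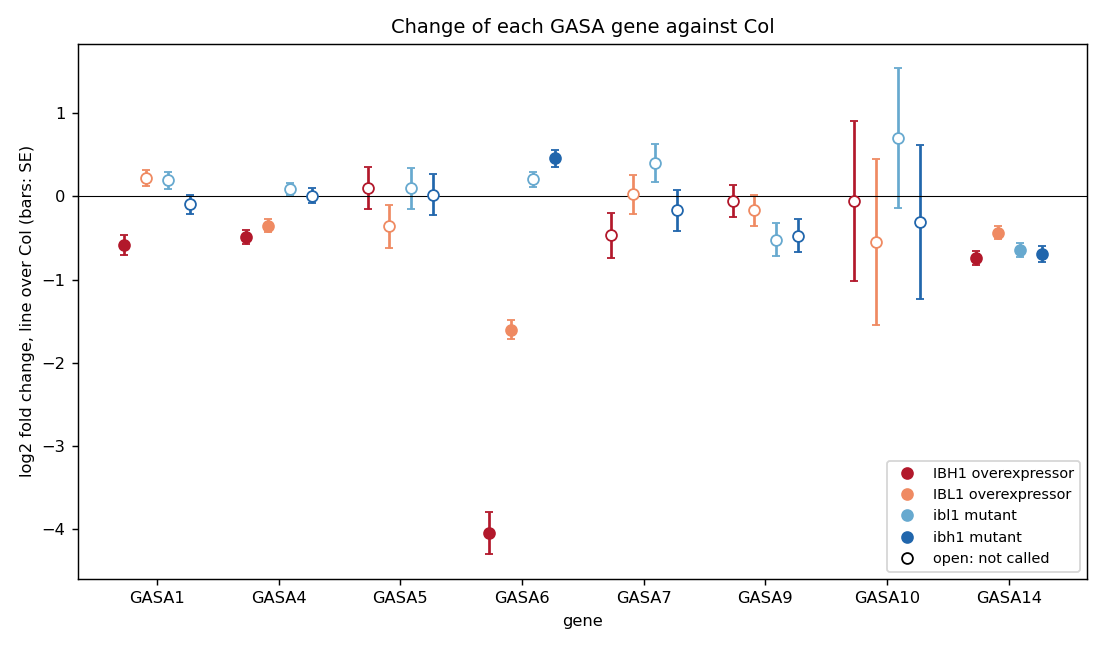
Log2 fold change of each GASA gene, line over Col (vertical axis), for the 4 lines; bars are standard errors recovered from the statistic of the authors, filled points are called by the authors' q-value and open points are not. The 2 points of GASA6 at -4.05 and -1.60 lie below all others, and the bars of GASA10 span the widest range.

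The other 4 members were not called in any line. GASA9 (AT1G22690, chromosome 1, 8027298 to 8028125, plus strand) was at 54.8 and 56.6 FPKM in the ibl1 and ibh1 mutants, 70.0 and 75.8 in the IBL1 and IBH1 overexpressors, and 78.7 in Col. The low values were those of the mutants, with log2 -0.52 ± 0.20 (ibl1, authors' q 0.117) and -0.48 ± 0.20 (ibh1, authors' q 0.2). GASA7 (AT2G14900, chromosome 2, 6404175 to 6405330, plus strand) ran from 24.9 FPKM in the IBH1 overexpressor over 30.7 in the ibh1 mutant, 34.5 in Col and 35.1 in the IBL1 overexpressor to 45.4 in the ibl1 mutant. Its ends, the IBH1 overexpressor and the ibl1 mutant, differed by log2 -0.87 ± 0.35 (95% interval of -1.56 to -0.17, adjusted p 0.231).

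GASA5 (AT3G02885, chromosome 3, 638021 to 639055, minus strand), which delays flowering, varied least, between 25.6 FPKM in the IBL1 overexpressor and 35.2 in the IBH1 overexpressor, with authors' q-values of 0.393 to 0.982. GASA10 (AT5G59845, chromosome 5, 24111324 to 24112020, plus strand) was at 1.60 to 3.79 FPKM. Its standard errors of 0.84 to 0.99 on the log2 scale were the largest of the 8 genes. Its 95% intervals, such as -2.49 to 1.39 in the IBL1 overexpressor and -0.94 to 2.34 in the ibl1 mutant, did not exclude changes of more than 2-fold. The reference annotation gives GASA7, GASA9 and GASA10 their IDs and the text gibberellin-regulated family protein, without the GASA numbers.

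Counted by line, 4 of the 8 genes fell in the IBH1 overexpressor and 0 rose, where 8.02% of all 20694 tested genes were called (4.19% lower, 3.82% higher). The shares over all genes given here are not matched to the members for transcript level. In the IBL1 overexpressor 3 fell and 0 rose, where 13.9% of 21480 genes were called (3.58% lower, 10.3% higher). GASA14 fell and GASA6 rose in the ibh1 mutant (3.37% of 20967 genes called, 2.04% lower and 1.34% higher), and GASA14 fell in the ibl1 mutant (5.45% of 20732 genes called, 4.4% lower and 1.05% higher). After subtracting the median gene the share of higher calls over all genes went from 74.3% to 48.1% in the IBL1 overexpressor and from 19.2% to 38.9% in the ibl1 mutant, and the members' calls were the same. The median log2 fold change over the 8 genes was -0.48 with excess IBH1, against 0.01 over all tested genes, and -0.36 with excess IBL1, against 0.13. In the mutants it was -0.13 (ibh1, against 0.02) and 0.14 (ibl1, against -0.07).

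Between lines, 2 of the 8 genes differed from one overexpressor to the other, GASA6 and GASA1, both lower with excess IBH1; of all genes 5.48% differed, 4.08% lower and 1.39% higher there. GASA6 and GASA4 were lower in the IBH1 overexpressor than in the ibh1 mutant (2.91% of all genes, 1.62% lower and 1.3% higher) and in the IBL1 overexpressor than in the ibl1 mutant (5.16% of all genes, 0.722% lower and 4.44% higher). GASA6, GASA4 and GASA1 were lower in the IBH1 overexpressor than in the ibl1 mutant (3.27% of all genes, 1.32% lower and 1.94% higher). GASA6 was lower in the IBL1 overexpressor than in the ibh1 mutant (2.54% of all genes, 0.642% lower and 1.9% higher). Between the mutants the normal test called 0 of 8, with 0 at an unadjusted p below 0.05, while 0.466% of all genes were called (0.31% higher and 0.155% lower in ibh1).

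**Figure D4:**
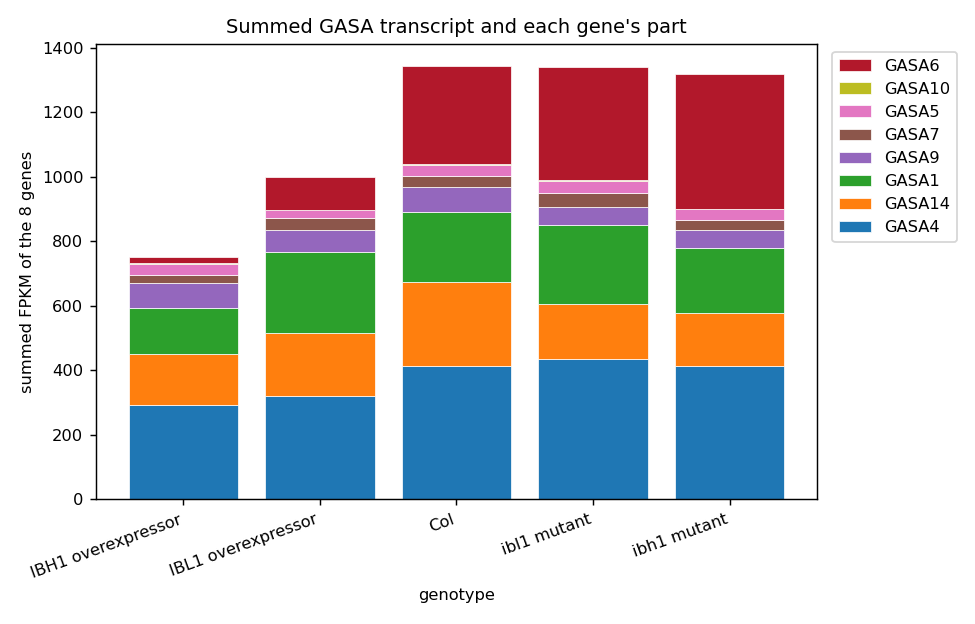
Summed FPKM of the 8 GASA genes (vertical axis, from 0) in the 5 genotypes (horizontal axis), stacked by gene with GASA6 on top. The sum is 1344 FPKM in Col and 751 in the IBH1 overexpressor, where the GASA6 part is 2.46%.

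Summed over the 8 genes the transcript was 1344 FPKM in Col, 1340 and 1319 in the ibl1 and ibh1 mutants, and 999 and 751 in the IBL1 and IBH1 overexpressors. The ibl1 and ibh1 mutants had 99.7% and 98.1% of the Col sum, and the IBL1 and IBH1 overexpressors 74.3% and 55.9%. GASA6 made up 22.7% of the sum in Col, 31.7% in the ibh1 mutant, 26.2% in the ibl1 mutant and 2.46% in the IBH1 overexpressor. Without GASA6 the sums were 70.5% of Col in the IBH1 overexpressor, 86.5% in the IBL1 overexpressor, 86.7% in the ibh1 mutant and 95.2% in the ibl1 mutant. These sums carry no error, as the files give 1 value per genotype. In whole seedlings fewer cells that express a gene and less transcript per cell cannot be told apart. LHCB1.3 and CAB3 encode near-identical antenna proteins, so the split of reads between them is uncertain. Summed leaf markers were at 46787 FPKM in Col and 28343 to 33945 in the lines, and summed root markers at 1254 in Col and 1112 to 1715 in the lines. The leaf sum was lower in all 4 lines, as GASA14 was. Of its markers CAB3 fell in 4 lines and LHCB1.3 in 3, while RBCS1A was called in 0 and stood at 87.7% to 97.2% of Col. Of the root markers PYK10 made up 1209 of the 1254 FPKM in Col; CASP1 was called higher in the ibh1 mutant and the IBL1 overexpressor, WER and PYK10 in the IBL1 overexpressor alone, and COBL9 in no line. The part of these markers in the GASA results was not tested.

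The remaining 7 genes of the family in the reference annotation were scarcely present in these seedlings. GASA2 (AT4G09610), AT2G39540, AT2G30810 and AT1G10588 were listed at 0 FPKM in all 5 genotypes. GASA3 (AT4G09600) reached at most 0.706 FPKM and AT2G18420 at most 0.201. AT3G10185 was at 1.17 FPKM in Col, at 0.420 in the ibh1 mutant and listed at 0 in the other 3 lines, and its locus in the tables spans 2 other genes. It was the only one of the 7 that the authors' tables list as tested, and it was not called (q 0.438 to 0.875).

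Of 29 genes of gibberellin synthesis, inactivation, perception and signalling, 24 were tested in the IBH1 overexpressor, 2 rose and 2 fell, with a median log2 fold change of 0.06. Of all tested genes 8.02% were called there. The receptor gene GID1A rose from 14.3 to 23.4 FPKM (log2 0.71 ± 0.19, authors' q 0.00386) and KAO2, an oxidase of gibberellin synthesis, from 10.6 to 18.4 FPKM (log2 0.79 ± 0.21, authors' q 0.00398). The DELLA repressor genes RGL1 (log2 -0.93 ± 0.28, authors' q 0.0175) and GAI (-0.47 ± 0.15, authors' q 0.0244) fell. GAI also fell in the IBL1 overexpressor (-0.40 ± 0.14, authors' q 0.0255), the only call of 24 tested there, beside 13.9% of all genes. KAO2 rose in the ibl1 mutant (0.78 ± 0.21, authors' q 0.00669), where SPY, a sugar transferase that restrains the response, fell by 0.41 ± 0.12 (authors' q 0.0215), a call lost after subtracting the median gene (adjusted p 0.0984). These were the only calls of 23 tested in the ibl1 mutant, beside 5.45% of all genes. Cuffdiff called 0 of 23 in the ibh1 mutant, with 3 at an unadjusted p below 0.05, beside 3.37% of all genes called.

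The genes on either side of each member were added after the members' values were seen. The neighbours of GASA6, AT1G74660 and AT1G74680, had log2 0.03 ± 0.46 and 0.51 ± 0.32 in the IBH1 overexpressor, and those of GASA14, AT5G14910 and AT5G14930, had 0.11 ± 0.09 and -0.09 ± 0.24 there, none of them called in any line. Of the 16 neighbours, 15 were tested in the IBH1 overexpressor, where 1 rose and 2 fell, beside the 8.02% of all genes called there. AT5G15220, next to GASA4, fell there (-0.74 ± 0.22, authors' q 0.0156). It had log2 -0.43 in the IBL1 overexpressor, -0.41 in the ibh1 mutant and -0.50 in the ibl1 mutant, none of them called. GASA4 itself was lower than Col in the overexpressors alone. In the IBH1 overexpressor AT1G75730, next to GASA1, rose where GASA1 fell (0.81 ± 0.27, authors' q 0.0385), and AT2G14890, next to the uncalled GASA7, fell (-0.77 ± 0.08, authors' q listed as 0). In the ibl1 mutant 1 rose and 1 fell of 15 tested, AT3G02890 next to GASA5 and AT2G14890, both beside uncalled members. Of all genes 5.45% were called there. Cuffdiff called 0 of 15 in the IBL1 overexpressor and 0 of 16 in the ibh1 mutant, with 5 at an unadjusted p below 0.05 in each. The shares called over all genes were 13.9% in the IBL1 overexpressor and 3.37% in the ibh1 mutant.

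The profile over the 5 genotypes most like that of GASA6 was that of EXPA8 (AT2G40610), an expansin that loosens cell walls. It was at 1.61 FPKM in the IBH1 overexpressor, 15.7 in the IBL1 overexpressor, 32.7 in the ibl1 mutant, 41.0 in Col and 42.3 in the ibh1 mutant. Likeness was the distance between log2(FPKM + 1) profiles, each centred on its mean, among 20456 genes with a mean of at least 1 FPKM. EXPA8 lay at 0.64, the next genes, MIR841a and P1R1, at 1.31 and 1.49, and the nearest member, GASA4, at 3.23 which ranked 921 in distance. For GASA14 the nearest were HTR11 (4.37 to 7.79 FPKM), AT2G32220 and AT5G40030 at 0.09 to 0.14. For GASA4 they were AT1G77570, RLP57 and CESA4 at 0.05 to 0.08. For GASA1 they were AT5G18245, NAC1 and GSTU6 at 0.08 to 0.10. With a pseudocount of 0.1 in place of 1, of the 3 nearest genes 0 stayed for GASA6, 1 for GASA4, 1 for GASA1 and 2 for GASA14. With 5 genotypes close profiles were many for the other members: GASA7, at 0.31 from GASA1, ranked 307, and GASA9, at 0.52 from GASA14, ranked 2697. For GASA6, with a pseudocount of 1, only EXPA8 lay nearer than 1.31. All distances are a description.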

How the data were processed

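Per the labels, poly(A) RNA of 10 libraries was sequenced with an Illumina kit. Each genotype has 2 deposited libraries, although the extraction protocol speaks of a larger number of replicates, which it calls independent. Per the submitters' processing notes, CASAVA 1.8.2, TopHat 1.4.1 and Cuffdiff were used with TAIR10; which Cuffdiff version, scaling and strand setting were used is not given in the sources used here. What the authors deposited is 1 table for each of 4 lines. Per the file headers it holds FPKM values per genotype, a log2 fold change and a statistic (both handled as a score), and p-values and q-values. Because the deposited fold change puts Col in the numerator, it was inverted. The statistic gave the deposited p-value as a two-sided normal p to within 2.81e-06, so the standard error was taken as fold change over statistic. The depth per library is unknown, and no interval that needs it is given. The members and gene lists were chosen with earlier results of these data known, and so was the rule for named genes: all 8 members in every line, other family genes with their levels, at most 4 called gibberellin genes per line and the 3 nearest genes of each called member. Neighbouring genes were added after that. Direct differences between lines used the summed squared standard errors and were tested on simulated data. The simulated errors were drawn from these same standard errors, so the simulation could not check whether the standard errors are right. Alternatives were q below 0.01, centring on the median of genes at 1 FPKM or more in both genotypes, a minimum mean of 1 FPKM, adjustment over the 4 tables together, pseudocounts of 0.1 and 1, and a reduced error for direct differences. No protein table was given, so coding sequences were compared in place of the planned proteins. Upstream and coding sequences came from RefSeq TAIR10.1, in which the coding regions of the 8 genes lie within the loci of the files; loci are given as in the files, with starts shifted to count from 1. Python 3.11.15, pandas 2.3.3 and scipy 1.17.1 were used.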

Additional observations from a re-analysis of the deposited data

Results flagged for a closer look

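The IBH1 and IBL1 overexpressors differed in 2 GASA genes by the direct test between these lines, whose transgene transcripts also stood at different levels (5148 FPKM of IBH1 and 201 of IBL1). GASA6 differed by -2.45 (log2, IBH1 over IBL1 overexpressor), with 18.4 against 101 FPKM. GASA1 differed by -0.81, with 143 against 250 FPKM, and its fold changes over Col had opposite signs, -0.59 and 0.22, of which the first was called.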

How the results depend on the processing

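No paired analysis was possible because the files hold 1 value per genotype and none per library; for the same reason no library could be left out. The members called in each line stayed the same in number under all 4 alternatives (q below 0.01, centring, a minimum mean of 1 FPKM, adjustment over the 4 tables). Over all genes a q-value below 0.01 left 1012 (IBH1) and 1882 (IBL1) calls for the overexpressors and 334 (ibh1) and 606 (ibl1) for the mutants. A reduced error raised the genes differing between lines from 1096 to 3159 (IBH1 against IBL1 overexpressor), 93 to 502 (ibh1 against ibl1 mutant), 580 to 1873 (IBH1 overexpressor against ibh1 mutant), 1036 to 3330 (IBL1 overexpressor against ibl1 mutant), 647 to 2202 (IBH1 overexpressor against ibl1 mutant) and 514 to 1601 (IBL1 overexpressor against ibh1 mutant). In the last pair it raised the GASA genes that differed from 1 to 3 (GASA1, GASA4 and GASA6), and centring raised them to 2 (GASA4 and GASA6). Centring lowered the genes differing between the IBL1 overexpressor and the ibl1 mutant from 1036 to 673. The reduced error follows from its construction; the cause of the changes under centring was not tested. No GASA fold change or direct difference that was called reversed. The reduced error also called GASA14 between the overexpressors (adjusted p 0.0032), GASA1 between the IBH1 overexpressor and the ibh1 mutant (0.000891) and GASA7 between the IBH1 overexpressor and the ibl1 mutant (0.00851). Changes of GASA10, at 3.79 FPKM or less, are limited by its wide error.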
